A study of Homo sapiens with 6 samples.

Results

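Genes of transcription factors of the lateral and caudal ganglionic eminences were examined for MYT1L occupancy. They are GSX1, GSX2, NR2F1, NR2F2, PROX1, SP8, SP9 and MEIS2, 8 of the 20037 protein-coding genes of the RefSeq GRCh38.p14 table on chromosomes 1 to 22, X and Y. Each was taken by name, and every deposited peak that touched the gene or the 5 kb on either side of it was counted. These windows spanned 388853 bp in all. Occupancy was measured by CUT&RUN, in which an antibody directs a nuclease to a chromatin protein and the released DNA is sequenced. The cells came from H1, an established line of human embryonic stem cells with no engineered genotype (wild type), and were taken at day 30. The series describes them as cortical interneurons made from that line, while the samples are labelled by the stem cell type. The antibody was against MYT1L in 4 libraries, and was IgG, which has no chromatin target and measures background, in 2. All share this 1 line and no other treatment is labelled. Nothing says that replicates came from separate cultures, so p-values measure only the spread between these libraries, which may be technical.

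The ganglionic eminences are the ventral forebrain zones that give rise to inhibitory neurons. The lateral eminence produces striatal projection neurons and olfactory bulb interneurons, and the caudal eminence produces a large class of cortical interneurons. GSX1 and GSX2 are homeobox factors of the progenitors. NR2F1 and NR2F2, also called COUP-TFI and COUP-TFII, are orphan nuclear receptors prominent in the caudal eminence, PROX1 is a homeobox factor of its interneurons, SP8 and SP9 are zinc-finger factors of both eminences, and MEIS2 is a homeobox factor of lateral eminence derivatives. MYT1L is a zinc-finger factor of neurons known for repressing genes of other cell fates. Peak lists do not measure expression, so the labelled cell identity could not be checked against marker genes, and a site used in few cells cannot be told apart from one used weakly in many.

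Printed here are the upstream bases of 3 transcript starts at NR2F1 and NR2F2 that lay partly inside MYT1L peaks. A further NR2F1-AS1 start, with upstream bases at chr5:93584445-93584694, lies within NR2F1 itself, where it may overlap untranslated exon sequence, and is not printed. Peaks of both MYT1L replicate 4 and IgG replicate 2 touched it. Each printed sequence is the 250 bases upstream of a RefSeq transcript start (GRCh38.p14). Capitals mark the bases inside the peak of every MYT1L library that had one there. The first is a start of NR2F1-AS1, the long noncoding RNA gene that overlaps the beginning of NR2F1, at chr5:93579859-93580108 on the minus strand. Its 136 capitals were shared by the peaks of 3 libraries. The second is the start of NR2F1, chr5:93582972-93583221 on the plus strand, with 114 bases inside a peak of MYT1L replicate 4. The third is an internal start of NR2F2, chr15:96332315-96332564 on the plus strand, with 213 bases inside a peak of the same replicate. Those bases lie inside NR2F2 and read as protein-coding exon sequence of the gene, so they are not promoter DNA alone.
NR2F1-AS1: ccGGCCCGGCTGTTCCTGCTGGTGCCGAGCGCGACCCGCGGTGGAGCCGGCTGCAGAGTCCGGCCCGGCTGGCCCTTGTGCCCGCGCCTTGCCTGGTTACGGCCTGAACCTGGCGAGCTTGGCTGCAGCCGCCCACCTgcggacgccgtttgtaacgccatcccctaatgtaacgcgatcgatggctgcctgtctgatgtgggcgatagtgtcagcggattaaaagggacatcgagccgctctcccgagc
NR2F1: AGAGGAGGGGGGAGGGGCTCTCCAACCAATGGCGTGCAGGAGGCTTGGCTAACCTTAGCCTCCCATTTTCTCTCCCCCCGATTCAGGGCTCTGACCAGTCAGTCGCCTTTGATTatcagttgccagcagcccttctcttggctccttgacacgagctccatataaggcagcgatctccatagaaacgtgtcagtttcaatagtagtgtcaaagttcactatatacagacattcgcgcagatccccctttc
NR2F2: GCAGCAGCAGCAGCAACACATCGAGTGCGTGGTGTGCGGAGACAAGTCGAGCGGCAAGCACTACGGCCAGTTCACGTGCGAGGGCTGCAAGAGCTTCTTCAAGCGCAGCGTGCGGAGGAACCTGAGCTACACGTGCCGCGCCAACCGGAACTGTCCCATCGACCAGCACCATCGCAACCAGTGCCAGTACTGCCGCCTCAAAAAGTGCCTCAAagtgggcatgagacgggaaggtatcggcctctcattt
The letters AAGTTT, the core of the sequence recognised by the MYT1 family, were searched on both strands in the 300-base windows of the RefSeq promoter table (250 bases before a start and 50 from it on). They occurred in 12.8% of all 35116 promoters. Of the 20 promoters inside the 8 gene windows, 6 held the core, and 5 were touched by a MYT1L peak, with 0 promoters in both sets. A pair of the 6, at neighbouring NR2F2-AS1 starts, overlap each other and may hold the same occurrence. Among the promoters of the genes themselves, 1 of 9 held the core, at an internal NR2F1 start without a MYT1L peak. The 9 promoters belonged to 6 of the 8 genes, and there was none for PROX1 and SP9. The longer form AAAGTTT, which contains the core, was in 4.28% of all promoters and also in that NR2F1 promoter.

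Peaks at the 8 genes were few, and MYT1L replicate 4 held 17 of the 32 found with the MYT1L antibody. Replicates 1, 2 and 3 had 9, 1 and 5 peaks, and each IgG library had 1. MYT1L replicate 2 thus had no more than the controls, and the other 3 had more. Per library this made 8.0 ± 6.83 peaks with MYT1L (SD, n = 4) against 1.0 ± 0 with IgG (SD, n = 2). The difference of 7.0 peaks gave a two-sided p of 0.400 in an exact permutation test, where this design can reach 0.133 at best. Peaks covered 4026, 288, 2122 and 8513 bp of the windows in MYT1L replicates 1 to 4, against 328 and 251 bp in IgG replicates 1 and 2. The covered length differed by 3448 bp (exact permutation test, two-sided, p = 0.267). Without MYT1L replicate 4 the difference in peak number was 4.0 peaks and that in covered length 1856 bp. The names of the peaks in each MYT1L list carry a sample number 1 higher than the title, so a replicate number here follows the title and may not be the one used at the bench.

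**Figure D1:**
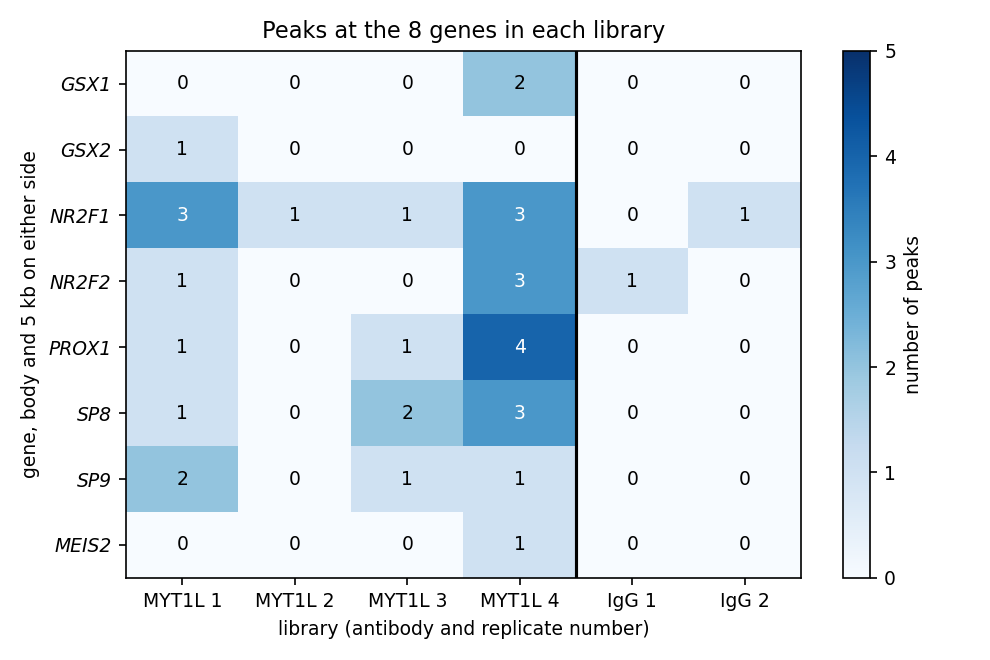
Number of deposited peaks in each gene window (rows) in each library (columns, with MYT1L left and IgG right of the line). NR2F1 is the only row with a peak in every MYT1L library, and MYT1L replicate 2 has a single peak, at NR2F1.

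The libraries differed in depth. Total reads are not given, but the fold and −log10 p of each peak fix a whole number of fragments at its summit and an expected background. The genome-wide part of that background placed MYT1L replicates 1 to 4 at 3.86, 1.45, 3.39 and 3.08 times the depth of IgG replicate 1, and at 6.31, 2.37, 5.54 and 5.03 times that of IgG replicate 2. Summits at the 8 genes held 8 to 41 fragments, with a median of 15. Thinned to the depth of IgG replicate 1, the peaks of MYT1L replicates 1 to 4 were expected to leave 0.760, 0.765, 0.990 and 4.83, beside the 1 peak of that control. Thinned to IgG replicate 2 they left 0.320, 0.297, 0.392 and 2.13, beside 1 again. MYT1L replicate 4 was thus the only library expected to have more peaks at these genes than the control it was matched to, and a control count of 1 carries a wide counting error. The depth of IgG replicate 1 left 8.45%, 76.5%, 19.8% and 28.4% of the peaks at these genes in replicates 1 to 4, and 18.6%, 63.7%, 23.3% and 40.5% of all peaks of the same lists.

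**Figure D2:**
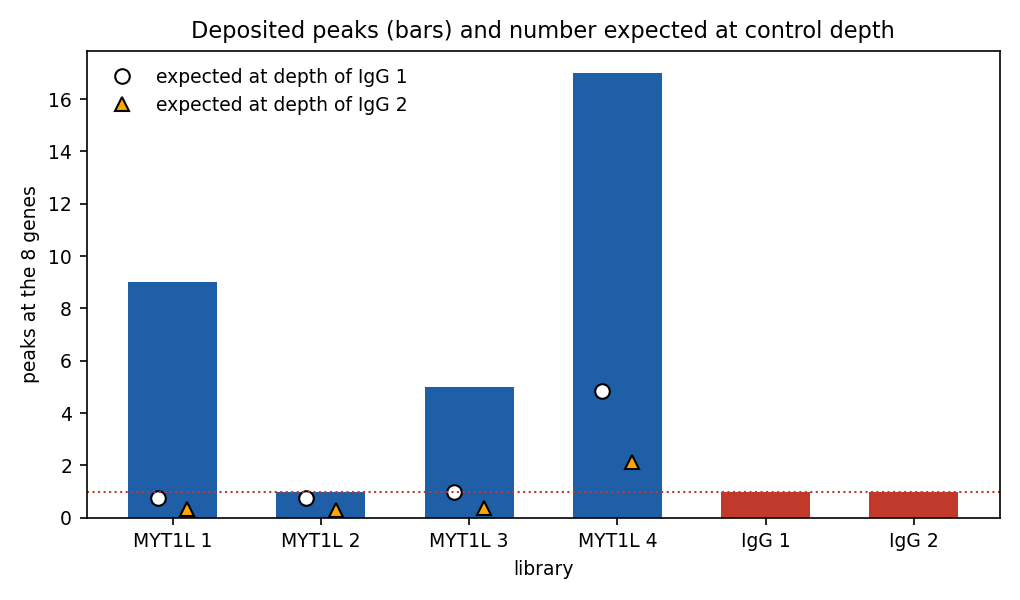
Deposited peaks at the 8 genes per library (bars, blue MYT1L, red IgG) and the number expected after thinning each MYT1L library to the depth of IgG replicate 1 (circles) or 2 (triangles). The dotted line marks the 1 peak of each control, and the thinned values of MYT1L replicates 1 to 3 lie below it.

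Every one of the 8 genes had a peak in at least 1 MYT1L library, as did 84.1% of all protein-coding genes. By library, MYT1L replicate 1 had a peak at 6 genes (68.0% of all protein-coding genes), replicate 2 at 1 (43.0%), replicate 3 at 4 (57.3%) and replicate 4 at 7 (77.6%). IgG replicate 1 had a peak at 1 gene (1.61%) and IgG replicate 2 at 1 (2.90%), so 2 of the 8 genes had an IgG peak, against 4.16% of all. None of the 8 had more peaks in every MYT1L library than in either control, a pattern found at 30.6% of protein-coding genes. The 32 MYT1L peaks formed 21 regions of overlapping peaks, of which 13 came from 1 library, 5 from 2, 3 from 3 and 0 from all 4. A region was called reproducible when at least 3 of the 4 MYT1L libraries had a peak in it. Such a region without an IgG peak lay at 3 of the 8 genes (37.5%), NR2F1, PROX1 and SP8, against 48.0% of all protein-coding genes. Longer windows catch more regions, and the shares called in the genes' own length classes (10 classes of equal size) sum to 3.26 genes, close to the 3 observed. With peaks of a −log10 q of at least 5 alone, 0 of the 8 genes kept a reproducible region, against 30.6% of all. When 2 libraries sufficed, NR2F2 and SP9 were added, giving 5 of 8 against 65.3%. When all 4 were required there was 0 of 8 against 25.3%.

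PROX1 had the one reproducible region that lay on a gene start. The gene spans chromosome 1, 213983151 to 214041510, and the region ran from 213982760 to 213983431. Its peaks had a fold over local background of 4.76 in MYT1L replicate 1, 6.79 in replicate 3 and 5.36 in replicate 4, a mean of 5.64 ± 1.04 (SD, n = 3). MYT1L replicate 2 and both IgG libraries had none. The 3 summits lay 110, 185 and 217 bp upstream of the start, and the 3 peaks shared 299 bp. The region also lies inside PROX1-AS1, a long noncoding RNA gene named as antisense to PROX1. The nearest IgG peak was 567739 bp away. The other 3 PROX1 peaks came from MYT1L replicate 4 alone, with summits 4983, 6222 and 14633 bp into the gene and folds of 5.21, 5.57 and 5.28. The tables used give no strand for PROX1 and SP9, and both are taken to run towards higher coordinates, as is known of them.

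NR2F1 (chromosome 5, 93583222 to 93594611) was the gene with the most peaks and the only one of the 8 with a peak in every MYT1L library. There were 3, 1, 1 and 3 peaks in MYT1L replicates 1 to 4, 0 in IgG replicate 1 and 1 in IgG replicate 2, so the groups overlapped. The reproducible region lay upstream, from 93579484 to 93580609, within NR2F1-AS1 and over the noncoding start printed above. Its folds were 3.35, 4.54 and 4.96 in MYT1L replicates 1, 3 and 4 (mean 4.28 ± 0.836, SD, n = 3), with summits 3024 to 3261 bp before the NR2F1 start. The nearest IgG peak was 3635 bp away. With windows of 1 kb or the gene body alone this region falls outside, leaving 2 of the 8 genes with a reproducible region. The share of all protein-coding genes that met the same rule fell as well. It was 44.7% at 1 kb and 43.2% for the gene body alone, beside 48.0% at 5 kb. A second region, just inside the gene from 93584015 to 93584554, had peaks in MYT1L replicates 1 (fold 4.81) and 4 (4.16), and overlapped the IgG replicate 2 peak. That control peak had a fold of 5.48 from 7 fragments, where the MYT1L peaks held 22 and 35. These fragment numbers are not at equal depth, as MYT1L replicates 1 and 4 were 6.31 and 5.03 times as deep as IgG replicate 2. The remaining sites were seen once each. One in MYT1L replicate 4 had its summit 247 bp before the NR2F1 start (fold 3.72, the second sequence above), one in replicate 2 lay 5094 bp into the gene (5.94), and one in replicate 1 lay 513 bp beyond its end (5.07).

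NR2F2 (chromosome 15, 96326046 to 96340263), the paralogue of NR2F1, had 1, 0, 0 and 3 peaks in MYT1L replicates 1 to 4, and 1 and 0 in IgG replicates 1 and 2. No region reached 3 libraries. The widest, from 96330298 to 96331629, had folds of 4.34 in MYT1L replicate 1 and 4.68 in replicate 4, with 19 and 41 fragments at the summits. Neither control had a peak in it. A further peak of replicate 4, which ended just upstream of the internal start (the third sequence above), had a fold of 3.10, the lowest of all 32 MYT1L peaks. The last, 698 bp beyond the gene, had a fold of 5.66. The IgG replicate 1 peak lay 3895 bp beyond the gene and 2671 bp from that peak, inside the noncoding gene SCDAL.

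SP8 (chromosome 7, 20782279 to 20786886, minus strand) had 1, 0, 2 and 3 peaks in MYT1L replicates 1 to 4 and none with IgG. Its reproducible region lay inside the gene, from 20784207 to 20784897, with folds of 5.92, 4.25 and 3.97 in MYT1L replicates 1, 3 and 4 (mean 4.72 ± 1.06, SD, n = 3). The peaks of replicates 3 and 4 did not overlap each other here. They were joined through the wider peak of replicate 1, so 0 bp were common to all 3. A region downstream of the gene, from 20777810 to 20778440, held the highest fold at any of the 8 genes. It was 8.42 in MYT1L replicate 4 and 6.34 in replicate 3, with summits 4004 and 4319 bp beyond the gene's end. That region reached 2 libraries only. Replicate 4 also had a peak with its summit 1269 bp after the start (fold 4.05).

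SP9 (chromosome 2, 174334954 to 174338500), the paralogue of SP8, had 2, 0, 1 and 1 peaks in MYT1L replicates 1 to 4 and none with IgG. All lay within the gene, in a pair of adjoining regions of 2 libraries each. The first, from 174336016 to 174336848, had folds of 3.86 in MYT1L replicate 1 and 3.94 in replicate 4. The second, from 174336965 to 174337213, had 3.73 in replicate 1 and 4.44 in replicate 3. MYT1L replicates 1, 3 and 4 thus each had a peak at SP9, with no stretch called in all 3.

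The progenitor genes GSX1 and GSX2 had single-library peaks. GSX1 (chromosome 13, 27792483 to 27794768) had 2 peaks in MYT1L replicate 4, with folds of 5.71 and 3.92 and summits 381 and 1604 bp after the start. GSX2 (chromosome 4, 54100163 to 54102498) had 1 peak in MYT1L replicate 1, with a fold of 4.90 and its summit 180 bp after the start. No other library had a peak in either window. Both peaks nearest a start thus lay just inside these paralogues, but in different libraries.

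MEIS2 (chromosome 15, 36889204 to 37101311, minus strand) was the longest of the 8 at 212108 bp and the emptiest. No library, MYT1L or IgG, had a peak in its body. Of the 2004 protein-coding genes in its length class (152254 bp and longer), 65 (3.24%) had no peak in the body in any of the 6 libraries. The single peak of its window, in MYT1L replicate 4 with a fold of 4.30, had its summit 499 bp upstream of the annotated gene start, inside the noncoding gene LOC124903465. That summit is at 37101810. The RefSeq promoters of MEIS2 have their transcript starts further inside the gene, at 37099106 and 37098696, and no peak touched them. Counted per 10 kb of window, the MYT1L libraries together had 0.0450 peaks at MEIS2, 0.878 at PROX1, 1.65 at NR2F2, 2.95 at SP9, 3.74 at NR2F1 and 4.11 at SP8, with 0.811 at GSX2 and 1.63 at GSX1. These values rest on 1 to 8 peaks a gene.

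**Figure D3:**
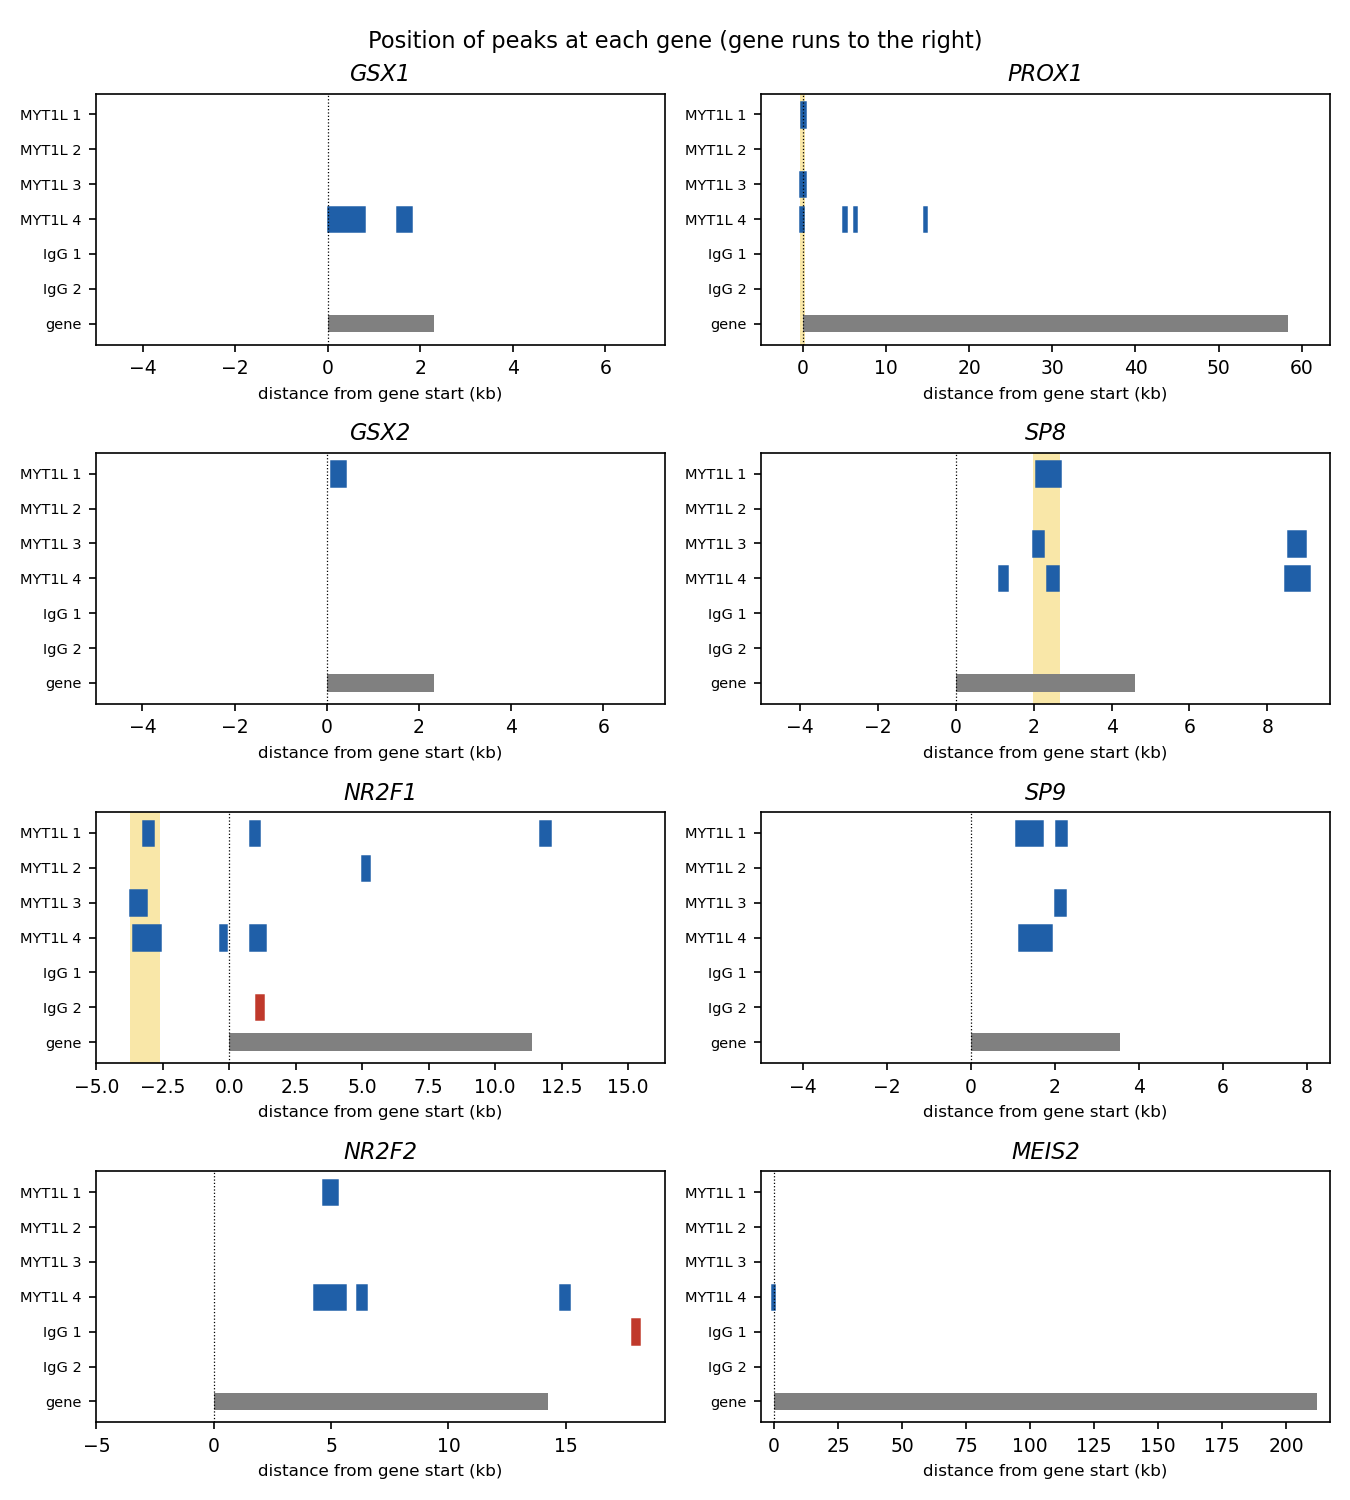
Position of each peak relative to the gene start (kb, each gene drawn running to the right, grey bar) in the 6 libraries (blue MYT1L, red IgG). Yellow marks the reproducible regions, on the PROX1 start, upstream of NR2F1 and inside SP8, and the MEIS2 body is empty in all libraries.

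The peaks were mostly below the median of their lists in fold, and spread on both sides of it in −log10 q. The highest fold per library averaged 6.89 ± 1.34 at SP8, 5.71 ± 1.02 at PROX1 and 4.08 ± 0.315 at SP9 (SD, n = 3 each), 5.13 ± 0.589 at NR2F1 (SD, n = 4) and 5.0 ± 0.936 at NR2F2 (SD, n = 2). GSX1 (5.71), GSX2 (4.90) and MEIS2 (4.30) had 1 library each. From SP8 down to SP9, the genes with several libraries differed from the next such gene by less than the larger of the pair of SDs, and the genes with 1 library have no spread to compare. This holds for neighbours in that order only. In MYT1L replicates 1, 3 and 4 the highest folds were 5.92, 6.34 and 8.42 at SP8 and 3.86, 4.44 and 3.94 at SP9. The highest folds of a gene can come from different sites. At SP8 that of MYT1L replicate 1 lay inside the gene and those of replicates 3 and 4 downstream of it. The SDs thus mix sites with libraries, and they leave out libraries without a peak. Of the 32 MYT1L peaks, 9 had a fold above the median of their own list, and 17 a −log10 q above it. Their −log10 q ran from 2.79 to 13.5, which placed them between the 6.30 and the 76.8 percentile of their lists, with a median of 51.3.

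The local background was high at most MYT1L peaks of NR2F1 and NR2F2. The peak caller divides by the fragments expected from the surroundings, and the deposited values give that number for each peak. At 22 of the 32 peaks it was above the median of the list. In MYT1L replicate 4 it was 7.67 to 8.55 times the genome-wide value at the 3 NR2F1 peaks, between the 97.4 and the 97.9 percentile of that list. At the 3 NR2F2 peaks it was 3.42 to 8.90 times the genome-wide value, up to the 98.1 percentile. In MYT1L replicate 1 it was 1.49 to 3.20 times at the 3 NR2F1 peaks, from the 47.6 to the 90.1 percentile. At the NR2F2 peak of that library it was 3.05 times, the 88.8 percentile. At the IgG replicate 2 peak in NR2F1 it was 2.42 times, the 41.5 percentile of that control's list, and at the IgG replicate 1 peak near NR2F2 it was 1.29 times. At SP9, the gene with the lowest highest fold on average, it was 1.83 to 3.70 times over 4 peaks, between the 70.0 and the 82.6 percentile. At SP8 it was 1.0 to 1.70 times over 6 peaks, of which 3 had folds of 3.97 to 4.25, from 8 or 9 fragments at the summit. Low folds occurred at both high and low local background, and a link between fold and background was not tested. The fold is computed from the same background, so the values are not independent.

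**Figure D4:**
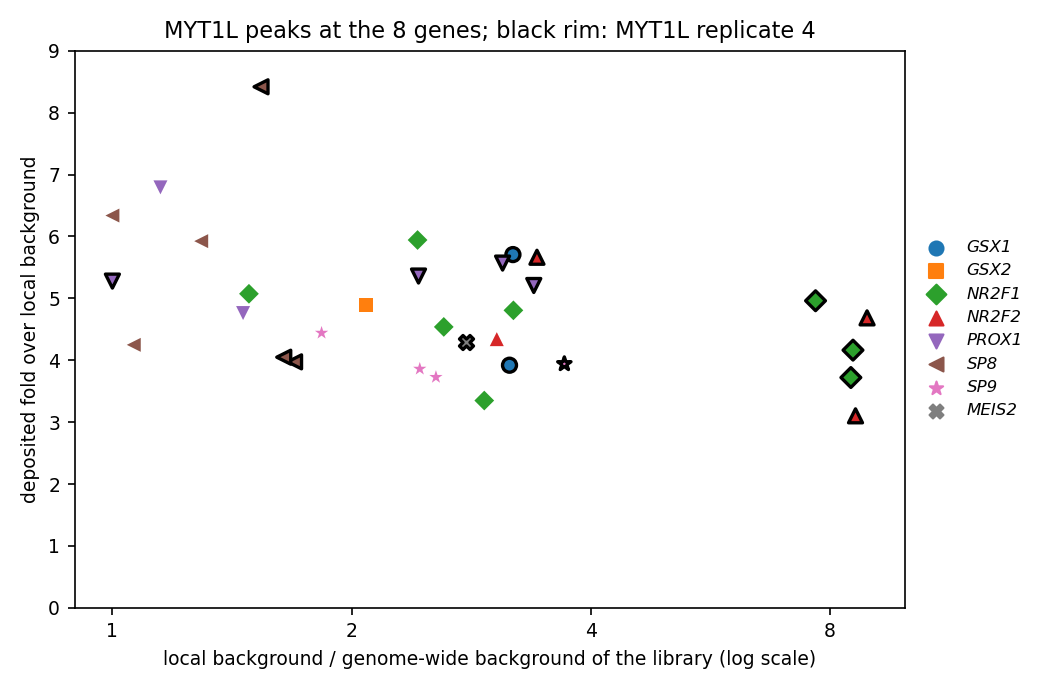
Deposited fold of each MYT1L peak at the 8 genes against the local background divided by the genome-wide background of its library (log scale), with symbols for genes and a black rim for MYT1L replicate 4. The rimmed NR2F1 and NR2F2 points at 7.67 to 8.90 times have folds of 3.10 to 4.96.

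For the genes with a reproducible region, the protein-coding gene with the most similar highest folds over the 6 libraries was sought among genes whose window length was within 1.5 times. It was ACADVL for NR2F1 (Euclidean distance 1.64 among 6754 genes), NLRP4 for PROX1 (0.602 among 4384) and PINLYP for SP8 (0.285 among 6453). Like SP8, PINLYP had no peak in MYT1L replicate 2 or in IgG, with folds of 5.86, 6.26 and 8.15 in replicates 1, 3 and 4.

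Other genes of the eminences were counted by the same rule. Of 8 genes active across the eminences, 2 had a reproducible region without IgG peak, among them DLX2 (a homeobox factor of interneuron progenitors), with 3.24 given by the shares of their length classes. Of 8 medial eminence genes, 3 had one (4.05 by length class): NKX2-1, the homeobox factor that specifies this eminence, and MAF and SOX6, factors of its interneurons. Of 14 genes of lateral eminence derivatives, 6 had one (8.35 by length class): BCL11B, FOXP1, IKZF1 and ISL1, factors of striatal projection neurons, and the zinc-finger genes ZFHX3 and ZNF521. Of 10 genes of caudal eminence interneurons, 3 had one (5.27 by length class): ADARB2, a marker of these cells, CNR1, a cannabinoid receptor, and RELN, a secreted glycoprotein. ADARB2 had 9 such regions in a gene of 560213 bp. VIP, a neuropeptide of such interneurons, had no MYT1L peak at all. Of 10 dorsal forebrain genes, 2 had one (3.54 by length class): LHX2, a factor of cortical progenitors, and TBR1, one of cortical projection neurons. In all this made 16 of 50 genes (32.0%), beside the 48.0% of all protein-coding genes. A region in all 4 MYT1L libraries was found at 5 of the 50 genes, ADARB2, CNR1, IKZF1, ISL1 and RELN, and at 0 of the 8. Without an IgG peak, such a region was found at 25.3% of all protein-coding genes.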

How the data were processed

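CUT&RUN libraries from H1 cells at day 30 (4 MYT1L, 2 IgG) were grouped and numbered by their titles. Each had 1 peak list. Per the submitters' processing notes, MACS2 and hg38 were used; caller settings and control library are not given in the sources used here, nor are read totals. Per peak the authors deposited a fold enrichment (a ratio over local background), a −log10 p, a −log10 q and a score that follows the −log10 q. These are the authors' values. Coordinates are counted from 1. Genes come from the RefSeq GRCh38.p14 table, and sequences from its promoter table.

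Peaks on chromosomes 1 to 22, X and Y were used. MYT1L peaks sharing at least 1 bp formed regions, 49028 in all, as many as bedtools 2.31.1 gave. Fragment numbers were solved from fold = (fragments + 1) / (background + 1) and a Poisson p, for at least 99.97% of peaks with −log10 p up to 200, within 0.0002. Depth is the lowest background divided by the step between local backgrounds, given as ratios. Thinning was binomial, counting peaks that still reached the control's lowest −log10 p. The forming of regions, the solving of fragment numbers and the thinning were tested on simulated data, and the depth estimate was not. Group tests are exact permutations over 15 splits (Python 3.11.15, scipy 1.17.1).

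All 8 genes are named, and of the other lists those with a reproducible region or no MYT1L peak, except 1 that is not reported here by name. The genes and lists were chosen with earlier results of these data known. Sequences around peak summits were not analysed here.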

Additional observations from a re-analysis of the deposited data

Results flagged for a closer look

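Of 13 measures examined over the 4 MYT1L libraries, 5 had a library whose gap to its nearest neighbour took up more of the range than Dixon's critical value for 4 samples, which chance gives in about 1 group in 20. After thinning to the depth of IgG replicate 1, MYT1L replicate 4 was expected to keep 4.83 peaks at the 8 genes, and the other 3 libraries 0.760 to 0.990. At the depth of IgG replicate 2 it was 2.13 in MYT1L replicate 4 against 0.297 to 0.392. The other 3 are genes with peaks in 1 library alone, where any count stands apart from zeros: 2 at GSX1 and 1 at MEIS2 in MYT1L replicate 4, and 1 at GSX2 in MYT1L replicate 1.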

How the results depend on the processing

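MYT1L libraries kept more peaks at the 8 genes in 17 of 23 alternatives (the main difference was 7.0 peaks, and 4.0 to 9.33 with one library left out) and more covered length in all 13 (1636 to 4598 bp). Its p-value cannot reach 0.05 with 4 and 2 libraries and is no measure of stability. The 6 alternatives in which the sign of the peak difference turned were all among those thinned to the depth of a control. With all 4 MYT1L libraries, the thinned difference was 0.837 peaks for IgG replicate 1 and −0.214 peaks for IgG replicate 2. Covered length was not thinned, so its 13 alternatives include no such setting. Thinned values without each MYT1L library in turn were added after the data were seen: with IgG replicate 1 they were −0.162 without MYT1L replicate 4 and 1.12 to 1.195 otherwise, and with IgG replicate 2 they were −0.0591, −0.0514, −0.0829 and −0.663 without MYT1L replicates 1 to 4. The count of genes with a reproducible region, 3, fell to 0 when peaks needed a −log10 q of 5 or more, and to 0 with all 4 libraries. With equal numbers of top peaks, each MYT1L list was cut to 12310 peaks, the length of the shortest, and the IgG lists were kept whole. The count was then also 0 (33.7% of all genes). It was 5 with at least 2 libraries and 3 to 5 when one library was left out, with 2 of 3 MYT1L libraries then sufficing; the 5 came without MYT1L replicate 2 (63.3% of all genes) and without replicate 3 (59.9%). Fewer peaks, or another number of libraries, enter by construction. The numbers in the titles are shared by the groups at 1 and 2 only. Pairing by them (replicate block) gave 4.0 peaks and 1868 bp, and the differences between numbers 1 and 2 had a correlation of 0.00621 over 20037 genes. Only 4.16% of protein-coding genes had an IgG peak, so this value cannot tell whether samples with the same number were handled together. Peaks of 8 to 41 fragments at these genes limit what the shallow controls could show.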

Other observations

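Between 5 and 10 kb from the genes there were 9 further peaks, all in MYT1L libraries and at 5 of the 8 genes. The MYT1L lists held 12310 to 30086 peaks and the IgG lists 976 and 998, so a lack of IgG peaks there says little about these genes. The share of all protein-coding genes with a peak at this distance was not computed. A site seen in MYT1L replicates 1 and 4, on chromosome 4 from 54091990 to 54092401, lay 2762 bp outside the GSX2 window (folds 4.85 and 4.42). MEIS2 had a peak just outside its window on each side. One in MYT1L replicate 1, 119 bp outside and inside the noncoding gene LOC145845, had a fold of 5.70, and one in replicate 4, 340 bp outside and inside LOC124903465, had 5.26. SP9 had a pair in MYT1L replicate 4 inside LINC01305, with folds of 4.29 and 5.65.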
